A study of Saccharomyces cerevisiae with 21 samples.

Results

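The genes described here are the 10 yeast genes of peroxisomal fatty acid beta-oxidation and its auxiliary steps, taken by systematic name from a table of 7122 genes: *PXA1* (YPL147W), *PXA2* (YKL188C), *POX1* (YGL205W), *FOX2* (YKR009C), *POT1* (YIL160C), *ECI1* (YLR284C), *SPS19* (YNL202W), *TES1* (YJR019C), *CTA1* (YDR256C) and *CAT2* (YML042W). Their mRNA levels were measured by RNA sequencing in 7 *Saccharomyces cerevisiae* strains with 3 libraries each, all from exponentially growing cells in synthetic medium. The strains were *ino4Δ mga2ΔTM* (*ino4Δ* cells with chromosomal *MGA2* that carry pRS316-GPDprom-Mga2deltaTM-mCh), *ino4Δ*, *mga2ΔTM* (*mga2Δ* cells with the same plasmid), *MGA2* (*mga2Δ* cells with pRS316-GPDprom-Mga2-mCh), *OLE1* (wild-type cells with pRS316-GPDprom-Ole1-mCh), *mga2Δ* and the wild-type BY4741. Plasmid strains grew in SDC-URA and the others in SDC+All without a plasmid. No wild-type with an empty plasmid was analysed, so medium, plasmid and the overexpressed gene cannot be told apart wherever a plasmid strain is set against a strain without one. The plasmid genes stand behind the GPD promoter and encode mCherry fusions, so they do not follow the regulation of their own promoters. The labels number the libraries but do not say whether they come from separate cultures, so p-values measure the spread between these libraries only.

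Long-chain fatty acids enter the peroxisome through the Pxa1-Pxa2 transporter and shorter ones as free acids that are activated inside, and each round of beta-oxidation runs through the acyl-CoA oxidase Pox1, the multifunctional enzyme Fox2 and the thiolase Pot1. Yeast has no mitochondrial beta-oxidation, so the acetyl units leave the peroxisome through the glyoxylate cycle or as acetylcarnitine made by Cat2. In glucose-grown cells the pathway is kept low, and on oleate the transcription factors Oaf1 and Pip2 bind the oleate response element while Adr1 and Snf1 act once glucose is gone. *INO4* encodes the partner of Ino2 in the activator of phospholipid synthesis genes, and *MGA2* encodes a membrane-bound transcription factor that drives *OLE1*, the gene of the fatty acid desaturase. Mga2ΔTM lacks the membrane anchor. The comparisons ask which transcripts differ when the Ino4 pathway is lost, when the Mga2 pathway is lost or overactive, and when both are altered.

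The regions upstream of the 10 genes hold the sequences by which this pathway is usually recognised. In the 500 bases before each start codon, both strands were searched for the oleate response element (CGG, 3 bases, TNA, 9 to 12 bases, CCG) and for the core of the Adr1 site (TTGGGG or TTGGAG). The sequences below are from the R64 genome as given by RefSeq, read 5′ to 3′ on the strand of the gene with 15 bases on each side of a match. They were chosen to show the oleate response element of the genes with the widest spread of responses, and the Adr1 core of a pair of genes in which no such element was found. Capitals mark the match.
*POT1*, oleate response element, chrIX:41595-41647, minus strand: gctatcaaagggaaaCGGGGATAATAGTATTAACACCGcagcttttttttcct
*POX1*, oleate response element, chrVII:107868-107920, plus strand: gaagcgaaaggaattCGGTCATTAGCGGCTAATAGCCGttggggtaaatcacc
*CTA1*, oleate response element, chrIV:969851-969904, minus strand: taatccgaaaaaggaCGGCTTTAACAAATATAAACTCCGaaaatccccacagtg
*SPS19*, oleate response element, chrXIV:259397-259450, plus strand: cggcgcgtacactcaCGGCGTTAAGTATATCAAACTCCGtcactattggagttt
*ECI1*, oleate response element, chrXII:707176-707228, minus strand: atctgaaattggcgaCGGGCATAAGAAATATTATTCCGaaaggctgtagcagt
*TES1*, oleate response element on the other strand, chrX:468374-468426, minus strand: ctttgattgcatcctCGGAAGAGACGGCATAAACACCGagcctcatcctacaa
*CAT2*, Adr1 core, chrXIII:192555-192590, plus strand: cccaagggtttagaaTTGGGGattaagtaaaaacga
*PXA1*, Adr1 core on the other strand, chrXVI:273105-273140, plus strand: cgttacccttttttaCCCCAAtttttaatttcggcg

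An oleate response element was found upstream of 8 of the 10 genes, all but *PXA1* and *CAT2*, and upstream of 113 of 6006 RefSeq genes (1.88%). *POX1* and *FOX2* each had 2 distinct elements. In *POX1* an Adr1 core followed the second element directly, at 252 to 247 bases before the start codon. The Adr1 core was found upstream of 9 of the 10 genes, all but *PXA2*, and of 26.1% of all genes. The stress element AGGGG was found upstream of *POX1* and *SPS19* and of 34.1% of all genes. CATGTG, the core of the site of Ino2 and Ino4, was found upstream of 0 of the 10 genes and of 13.2% of all genes. These matches describe letters in a window and were not tested for binding.

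**Figure D1:**
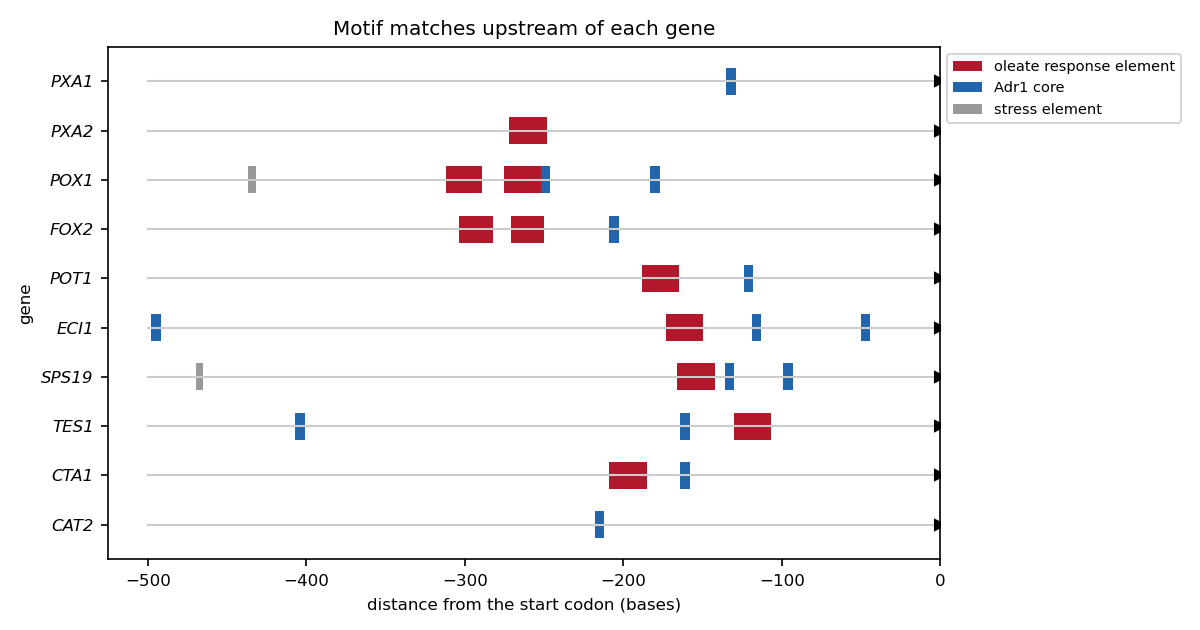
Positions of motif matches in the 500 bases before the start codon of each gene (x axis, distance in bases; y axis, gene). Red blocks are oleate response elements, blue blocks Adr1 cores and grey blocks stress elements; the oleate response element is seen in 8 of the 10 genes, and *PXA1* and *CAT2* hold an Adr1 core alone.

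Libraries held 12552418 to 18372240 counts (median 15132006), and 6164 genes, including all 10 described here, had enough counts to be tested. Levels are given as CPM, which is counts divided by the TMM-scaled library size and set to a common unit for all libraries, with SD over 3 libraries. Changes are log2 fold changes with the SE of the edgeR quasi-likelihood fit of all 21 libraries, and calls required more than a 1.5-fold change together with an adjusted p (Benjamini-Hochberg, over all 6164 genes) below 0.05. *INO4* had 10 to 13 counts in *ino4Δ mga2ΔTM* and 18 to 29 in *ino4Δ*, against 140 to 181 in wild-type, and *MGA2* had 7 to 10 counts in *mga2Δ*, against 2374 to 3107 in wild-type. Reads of *URA3*, the marker of the plasmids, numbered 2704 to 11623 in the plasmid strains and at most 1 elsewhere. The *mga2Δ* replicate 1 library stood apart from the other *mga2Δ* libraries in several of the genes below, and values without it are given where it decides a result.

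Deletion of *INO4* was accompanied by higher mRNA levels of the whole set: all 10 genes were called higher in *ino4Δ* than in wild-type, with log2 fold changes of 0.60 to 4.23 and a median of 1.55, beside a median of 0.03 over all genes tested. Over all genes 19.2% were called higher. In each of the 10 genes every *ino4Δ* library lay above every wild-type library, which was so for 34.1% of all genes. In bulk RNA, a larger share of cells with the pathway on and more mRNA per cell cannot be told apart.

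The transporter genes rose 2.64-fold and 2.11-fold. *PXA1*, at chrXVI:273255-275867, had 17.1, 18.05 and 18.9 CPM in *ino4Δ*, against 7.07, 7.22 and 6.22 CPM in wild-type. Its libraries did not overlap, and its log2 fold change was 1.40 ± 0.12. *PXA2*, the other subunit, at chrXI:86225-88786, had 21.04, 22.7 and 23.04 CPM in *ino4Δ*, against 9.76, 13.2 and 8.80 CPM in wild-type. The second wild-type library was the highest of its group, and the log2 fold change was 1.08 ± 0.17.

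The genes of the core cycle included the largest changes. *POX1*, at chrVII:108158-110404, encodes the acyl-CoA oxidase that opens the cycle and makes hydrogen peroxide. It had 9.93, 8.64 and 7.97 CPM in *ino4Δ*, against 1.06, 1.70 and 1.52 CPM in wild-type. All *ino4Δ* libraries were several times above the highest wild-type library, and the log2 fold change was 2.63 ± 0.22, or 6.20-fold. *FOX2*, at chrXI:454352-457054, encodes the hydratase and dehydrogenase of the middle steps. It had 33.2, 33.4 and 33.2 CPM in *ino4Δ*, against 11.4, 12.7 and 10.6 CPM in wild-type. Its *ino4Δ* libraries were nearly equal, and the log2 fold change was 1.52 ± 0.12.

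*POT1*, at chrIX:40191-41444, encodes the thiolase that releases acetyl-CoA. It had 201, 222 and 297 raw counts in *ino4Δ*, against 5, 18 and 9 in wild-type, or 11.3, 13.2 and 15.99 CPM against 0.313, 1.27 and 0.595 CPM. Few reads were counted in wild-type, and its second library held more of them than the other two together. The log2 fold change of 4.23 ± 0.30 (18.8-fold) was the largest of the 10 and moved to 4.86 without wild-type replicate 2.

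The auxiliary enzymes had log2 fold changes of 0.60 to 1.57. *SPS19*, at chrXIV:259578-260456, encodes the dienoyl-CoA reductase needed for fatty acids with double bonds at even positions. It had 15.9, 19.4 and 19.6 CPM in *ino4Δ*, against 6.13, 5.87 and 6.48 CPM in wild-type, and its log2 fold change was 1.57 ± 0.13. *ECI1*, the enoyl-CoA isomerase at chrXII:706198-707040, serves double bonds at odd positions. It had 13.4, 14.1 and 15.8 CPM in *ino4Δ*, against 9.82, 10.05 and 8.73 CPM in wild-type, a log2 fold change of 0.60 ± 0.11. *TES1*, at chrX:467232-468281, encodes the acyl-CoA thioesterase. It had 32.3, 32.5 and 31.1 CPM in *ino4Δ*, against 19.1, 21.7 and 22.5 CPM in wild-type, a log2 fold change of 0.60 ± 0.10. *ECI1* and *TES1* lie at the 1.5-fold line: with RLE size factors or DESeq2 their log2 fold changes of 0.58 fell just under it. *TES1* was also lost without the filter and in 17 of 21 fits with a library left out, and *ECI1* without *ino4Δ* replicate 3 or wild-type replicate 3.

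*CTA1*, at chrIV:968133-969680, encodes the catalase that removes the peroxide made by Pox1. It had 12.5, 10.4 and 11.2 CPM in *ino4Δ*, against 2.88, 3.96 and 3.37 CPM in wild-type, and its log2 fold change was 1.74 ± 0.17. *CAT2*, at chrXIII:192788-194800, encodes the carnitine acetyltransferase of peroxisomes and mitochondria. It had 34.8, 33.2 and 30.5 CPM in *ino4Δ*, against 7.44, 10.1 and 6.02 CPM in wild-type, and its log2 fold change was 2.07 ± 0.14. In both genes the groups were well apart. With library totals in place of TMM, the median over all genes moved to 0.24 and the calls to 1682 higher and 258 lower, from 1185 and 620, and all 10 genes were still called higher.

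**Figure D2:**
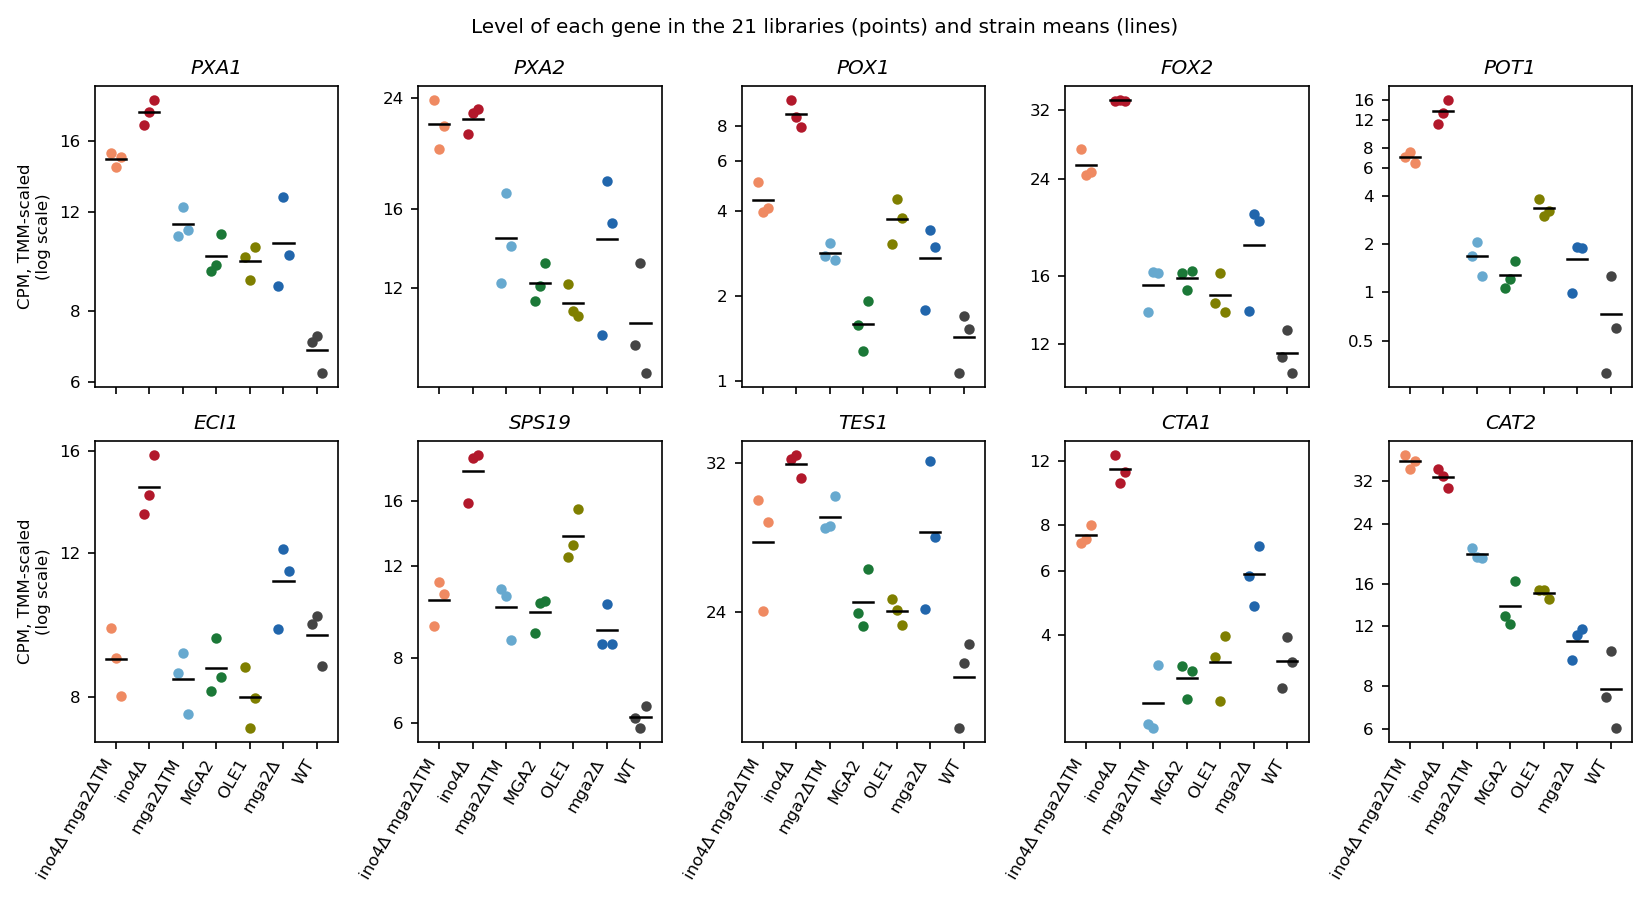
Level of each of the 10 genes in the 21 libraries (y axis, CPM after TMM scaling, log scale; x axis, strain; points, libraries; lines, means of 3). The *ino4Δ* points lie above the wild-type points in all 10 panels, for instance 11.3 to 15.99 CPM against 0.313 to 1.27 CPM in *POT1*.

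Per kilobase of gene, which allows levels of different genes to be compared, the set spanned a wide range. In *ino4Δ* the highest was *TES1* (30.4 ± 0.71 CPM per kb) and the lowest was *POX1* (3.94 ± 0.44 CPM per kb). In wild-type *TES1* was again highest at 20.1 ± 1.7 CPM per kb, and *POT1* (0.58 ± 0.39 CPM per kb) and *POX1* (0.64 ± 0.15 CPM per kb) were lowest. *POT1* therefore stood at 10.8 ± 1.9 CPM per kb in *ino4Δ*, above both transporter genes (6.90 ± 0.35 for *PXA1* and 8.69 ± 0.42 for *PXA2*), while in wild-type it stood below them (2.62 ± 0.21 and 4.13 ± 0.90 CPM per kb). *ECI1* and *TES1*, the genes with the smallest changes, were the highest of the set per kilobase in wild-type.

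In the double mutant *ino4Δ mga2ΔTM*, 8 of the 10 genes were called higher than in wild-type, beside 17.9% of all genes, with a median log2 fold change of 1.13 over the 10. *CAT2* changed the most after *POT1*, with 38.3, 34.8 and 36.6 CPM in *ino4Δ mga2ΔTM* and a log2 fold change of 2.22 ± 0.14. *POT1* had 7.04, 7.58 and 6.38 CPM there, and its log2 fold change was 3.28 ± 0.31. Those of *POX1* (1.61 ± 0.24), *CTA1* (1.14 ± 0.18), *FOX2* (1.13 ± 0.12), *PXA1* (1.12 ± 0.12), *PXA2* (1.05 ± 0.17) and *SPS19* (0.75 ± 0.13) were also called. *ECI1* was not called, with 8.89 ± 0.86 CPM in *ino4Δ mga2ΔTM* and 9.53 ± 0.70 CPM in wild-type (log2 fold change -0.10 ± 0.12). Nor was *TES1*, with 27.5 ± 3.0 and 21.1 ± 1.8 CPM (0.38 ± 0.10).

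Set directly against *ino4Δ*, the double mutant had lower levels of 5 genes, beside 5.16% of all genes called lower. *POX1* fell to 5.05, 3.95 and 4.08 CPM in *ino4Δ mga2ΔTM*, against 9.93, 8.64 and 7.97 CPM in *ino4Δ*, a log2 fold change of -1.02 ± 0.19. The thiolase gene *POT1* changed by -0.95 ± 0.22, *SPS19* by -0.82 ± 0.12, *ECI1* by -0.70 ± 0.11 and *CTA1* by -0.60 ± 0.16. The libraries of these 5 genes did not overlap, nor did those of *PXA1*, *FOX2* and *TES1*, which were lower in the double mutant but not called. For 24.6% of all genes the double mutant libraries lay wholly below those of *ino4Δ*. *CAT2* (0.16 ± 0.13) and *PXA2* (-0.03 ± 0.16) were not called either, with 36.6 ± 1.7 CPM of *CAT2* in *ino4Δ mga2ΔTM* and 32.8 ± 2.2 CPM in *ino4Δ*. The call of *CTA1*, near the 1.5-fold line, was lost with RLE size factors, DESeq2, nuclear ORFs only and only the compared strains, and without any of *ino4Δ* replicate 1, *ino4Δ mga2ΔTM* replicates 1 and 2, and *mga2Δ* replicate 1.

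In the strains with a plasmid in the wild-type or *mga2Δ* background, 2 to 5 of the 10 genes were called against wild-type. In *mga2ΔTM* 5 of the 10 were called higher, beside 6.49% of all genes. *CAT2* had 20.3, 19.1 and 19.1 CPM in *mga2ΔTM*, against 7.44, 10.1 and 6.02 CPM in wild-type, a log2 fold change of 1.31 ± 0.14. *POX1* (0.996 ± 0.25), *PXA1* (0.74 ± 0.12) and *SPS19* (0.70 ± 0.13) were called as well. *POT1* was called at 1.22 ± 0.38, but its lowest *mga2ΔTM* library and its highest wild-type library overlapped at 1.27 CPM, and the call was lost without *mga2ΔTM* replicate 1 or 2 or wild-type replicate 1 or 3. *PXA2*, not called with all libraries, was called without wild-type replicate 2, at 0.60.

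In *MGA2* 2 genes were called higher, beside 3.42% of all genes. These were *CAT2*, with 12.9, 12.2 and 16.3 CPM in *MGA2* (log2 fold change 0.81 ± 0.14), and *SPS19*, with 8.93, 10.2 and 10.3 CPM (0.67 ± 0.13). The oxidase gene *POX1* had 1.57, 1.27 and 1.92 CPM in *MGA2*, within the range of its wild-type libraries or just above it, and was not called (0.16 ± 0.27). A further gene, *POT1*, was called without wild-type replicate 2, at 1.47.

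In *OLE1* 4 genes were called higher, beside 6.08% of all genes. *POT1* had 3.84, 3.00 and 3.21 CPM in *OLE1* and a log2 fold change of 2.23 ± 0.34, the largest of the 10 genes in any strain with *INO4*. *POX1* had 3.06, 4.40 and 3.78 CPM in *OLE1* (1.39 ± 0.24). *SPS19* had 12.5, 13.2 and 15.5 CPM in *OLE1* (1.15 ± 0.13), and *CAT2* had 15.4, 15.3 and 14.4 CPM (0.94 ± 0.14). These 4 genes encode the oxidase, the thiolase, the dienoyl-CoA reductase and the carnitine acetyltransferase. *ECI1*, which also serves unsaturated acids, was not called, with 8.71, 7.33 and 7.98 CPM in *OLE1*. Its libraries lay wholly below those of wild-type (9.82, 10.05 and 8.73 CPM), as in 18.9% of all genes. *FOX2* of the core cycle was not called either, with 14.3, 16.2 and 13.8 CPM in *OLE1*, against 11.4, 12.7 and 10.6 CPM in wild-type. The catalase gene *CTA1* had 3.38 ± 0.68 CPM in *OLE1* and 3.40 ± 0.54 CPM in wild-type (-0.01 ± 0.19).

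In *mga2Δ*, which like wild-type carried no plasmid and grew in the same medium, 5 genes were called higher, beside 9.52% of all genes. *CTA1* had 5.79, 4.80 and 7.02 CPM in *mga2Δ*, against 2.88, 3.96 and 3.37 CPM in wild-type, a log2 fold change of 0.79 ± 0.18. *POX1* had 1.79, 3.42 and 2.97 CPM in *mga2Δ* (0.94 ± 0.25), *FOX2* had 13.8, 20.7 and 20.1 CPM (0.65 ± 0.12), and *PXA1* had 8.88, 12.7 and 10.1 CPM (0.63 ± 0.12). In these 3 genes the first *mga2Δ* library was the lowest. *POT1* was called at 1.17 ± 0.37, with 0.986, 1.92 and 1.90 CPM in *mga2Δ*, and its first *mga2Δ* library lay below the highest wild-type library. The count of 5 fell to 2 without *mga2Δ* replicate 2, and reached 7 without wild-type replicate 2, when *PXA2* (0.61) and *CAT2* (0.68) were added. *PXA1* was lost without *mga2Δ* replicate 2 or wild-type replicate 3, *FOX2* without *mga2Δ* replicate 2 or 3, and *POT1* without *mga2Δ* replicate 2 or 3 or wild-type replicate 1 or 3. Without *mga2Δ* replicate 1, *PXA2* was called at 0.63, and without *mga2Δ* replicate 3 or wild-type replicate 3, *SPS19* was called at 0.59.

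**Figure D3:**
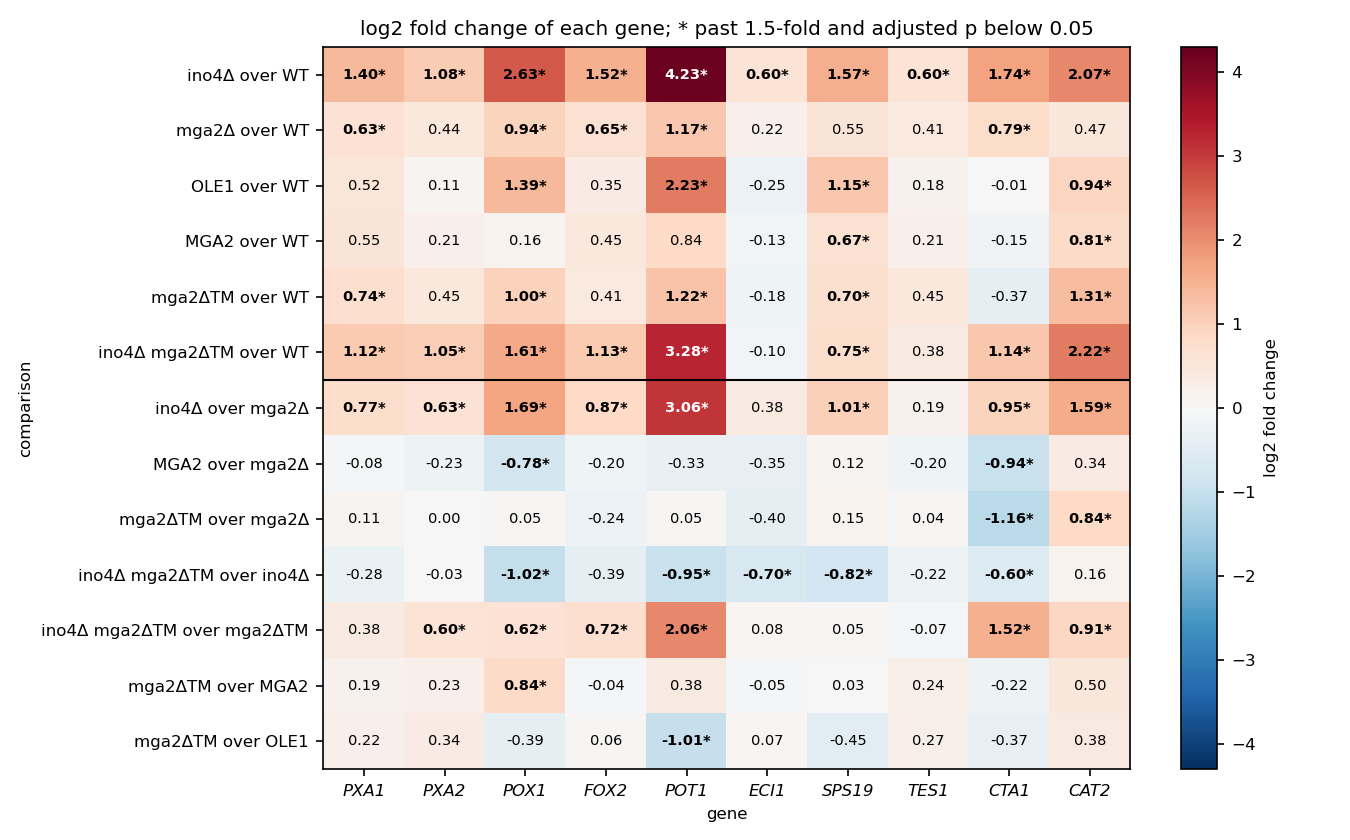
Log2 fold change of each gene (columns) in 13 comparisons (rows, with the group on top of the fold change first; the upper 6 are against wild-type). Bold values with an asterisk passed 1.5-fold and an adjusted p below 0.05; the top row, *ino4Δ* over wild-type, is called in all 10 genes and spans 0.60 to 4.23.

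Strains without *INO4* could also be set against strains that have it, in the same medium and with the same plasmid status, without the wild-type libraries. Against *mga2Δ*, *ino4Δ* had higher levels of 8 of the 10 genes, beside 9.65% of all genes, all but *ECI1* (0.38 ± 0.11) and *TES1* (0.19 ± 0.10). The changes were led by *POT1* (3.06 ± 0.26), *POX1* (1.69 ± 0.20), *CAT2* (1.59 ± 0.13) and *SPS19* (1.01 ± 0.12). *PXA2* (0.63 ± 0.17) was lost without *mga2Δ* replicate 1, at 0.43. Between the 2 strains that carry the Mga2ΔTM plasmid, 6 genes were higher in *ino4Δ mga2ΔTM* than in *mga2ΔTM*, beside 9.31% of all genes. These strains also differ in chromosomal *MGA2*, which the first carries and the second lacks. *POT1* had 7.04, 7.58 and 6.38 CPM in *ino4Δ mga2ΔTM*, against 1.69, 2.07 and 1.27 CPM in *mga2ΔTM*, a log2 fold change of 2.06 ± 0.27. *CTA1* had 7.17, 7.32 and 8.02 CPM against 2.29, 2.23 and 3.32 CPM (1.52 ± 0.19). *CAT2* (0.91 ± 0.13), *FOX2* (0.72 ± 0.12), *POX1* (0.62 ± 0.22) and *PXA2* (0.60 ± 0.17) were called too. The calls of *POX1* and *PXA2* were each lost without *ino4Δ mga2ΔTM* replicate 1 or *mga2ΔTM* replicate 1, and that of *POX1* also without *mga2ΔTM* replicate 3. *SPS19* was not called, with 10.3 ± 1.0 CPM in *ino4Δ mga2ΔTM* and 10.02 ± 1.2 CPM in *mga2ΔTM* (0.05 ± 0.13).

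The strains that overexpress a form of Mga2 from a plasmid in *mga2Δ* cells had lower *CTA1* than *mga2Δ*. They also differ from *mga2Δ* in medium and plasmid, which cannot be told apart from Mga2. In *mga2ΔTM*, *CTA1* had 2.29, 2.23 and 3.32 CPM, against 5.79, 4.80 and 7.02 CPM in *mga2Δ*. Its log2 fold change was -1.16 ± 0.19, and it was the only one of the 10 genes called lower, beside 7.27% of all genes. *CAT2* was the only one called higher (0.84 ± 0.14), beside 5.63% of all genes. In *MGA2*, *CTA1* had 3.29, 2.68 and 3.20 CPM and differed from *mga2Δ* by -0.94 ± 0.19. *POX1* was also lower in *MGA2* than in *mga2Δ* (-0.78 ± 0.25), so that 2 of the 10 genes were called, beside 6.02% of all genes. The *POX1* libraries overlapped, and its call was lost without *mga2Δ* replicate 2 or 3 or *MGA2* replicate 1 or 2.

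The Mga2ΔTM plasmid was carried by both deletion backgrounds. Whether the plasmid strain differed from its own background by the same amount in both was tested as an interaction. It was called lower in the *ino4Δ* background for 3 of the 10 genes, beside 1.9% of all genes. For *SPS19* the plasmid strain differed from its own background by -0.82 ± 0.12 in *ino4Δ* and by 0.15 ± 0.13 in *mga2Δ*, a difference of -0.97 ± 0.17. For *POX1* the values were -1.02 ± 0.19 and 0.05 ± 0.23, a difference of -1.07 ± 0.30. For *CAT2* they were 0.16 ± 0.13 and 0.84 ± 0.14, a difference of -0.69 ± 0.19. The call of *SPS19* was kept in every fit that left out a library, that of *POX1* was lost in 8 of 21 and that of *CAT2* in 9 of 21. Every fit that lost a call left out a library of the strains in the interaction. The 21 also include fits without a library of *MGA2*, *OLE1* or wild-type, which are not part of it. Most fits without a library of the strains in the interaction therefore lost these 2 calls. The fits that lost *CAT2* include the fit without *mga2Δ* replicate 1, at -0.58. *POX1* was also lost with only the compared strains fitted, at -1.03. *POT1* had a difference of similar size (-1.005 ± 0.39) that was not called. The *ino4Δ* strains have chromosomal *MGA2* and the *mga2Δ* strains lack it, so the backgrounds differ in both genes. Each difference also holds the change of medium and the plasmid itself, which cannot be told apart from Mga2ΔTM.

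The *mga2ΔTM* strain was set against *MGA2* and against *OLE1*, and 1 of the 10 genes was called in each comparison. *MGA2* was not tested against *OLE1*. The strains also differed in the mRNA of the overexpressed genes. *MGA2* mRNA had a mean of 1303 CPM in *mga2ΔTM* and 3820 CPM in the *MGA2* strain. *OLE1* mRNA had a mean of 2219 CPM in *mga2ΔTM* and 8404 CPM in the *OLE1* strain. *POX1* had 2.77, 3.07 and 2.68 CPM in *mga2ΔTM*, against 1.57, 1.27 and 1.92 CPM in *MGA2*, a log2 fold change of 0.84 ± 0.25. It was the 1 gene called higher in that comparison, beside 2.58% of all genes. The call was lost with limma-voom and in 5 of the 6 fits that left out a library of these strains; without *MGA2* replicate 3 it held and *CAT2* was called as well. *POT1* had 1.69, 2.07 and 1.27 CPM in *mga2ΔTM*, against 3.84, 3.00 and 3.21 CPM in *OLE1* (-1.01 ± 0.29). It was the 1 gene called lower there, beside 2.22% of all genes, and was lost with library totals and without *mga2ΔTM* replicate 1 or 3 or *OLE1* replicate 1 or 3.

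The order of the 7 strain means was similar for most of the genes. *ino4Δ* was highest for 9 of them, and *ino4Δ mga2ΔTM* was highest for *CAT2*. In 8 of those 9 genes the *ino4Δ* libraries did not overlap those of the strain next in order, and only in *PXA2* did they overlap. In *TES1*, however, *mga2Δ* replicate 2, from a strain further down the order, had 32.1 CPM, within the *ino4Δ* range of 31.1 to 32.5 CPM. Wild-type was lowest for 8 genes. The exceptions were *CTA1*, lowest in *mga2ΔTM* at 2.61 ± 0.61 CPM, and *ECI1*, lowest in *OLE1* at 8.01 ± 0.69 CPM. In the middle of the order most neighbours overlapped. For *PXA1*, *mga2ΔTM* (11.4 ± 0.71 CPM), *MGA2* (10.01 ± 0.82), *OLE1* (9.82 ± 0.68) and *mga2Δ* (10.6 ± 2.0) could not be put in order, and all libraries of these 4 strains lay above those of wild-type (6.83 ± 0.54). For *CAT2*, *ino4Δ mga2ΔTM*, *ino4Δ* and *mga2ΔTM* followed each other without overlap, the first pair by a narrow margin. *SPS19* was the only gene with *OLE1* in second place, at 13.7 ± 1.6 CPM, above *ino4Δ mga2ΔTM* (10.3 ± 1.0).

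Against wild-type, *POX1*, *POT1*, *SPS19* and *CAT2* were each called higher in 5 of the 6 strains, while *ECI1* and *TES1* were called in 1. The 6 comparisons share the wild-type libraries. The joint level, the mean over the 10 genes of log2 CPM centred on each gene's mean, describes this in 1 value per library. It was 0.51 ± 0.05 in *ino4Δ mga2ΔTM*, 0.98 ± 0.03 in *ino4Δ*, -0.17 ± 0.07 in *mga2ΔTM*, -0.37 ± 0.11 in *MGA2*, -0.09 ± 0.03 in *OLE1*, -0.13 ± 0.25 in *mga2Δ* and -0.73 ± 0.21 in wild-type. Within *mga2Δ*, replicate 1 had -0.42 and the others 0.05 and -0.03. Within wild-type, replicate 2 had -0.50 and the others -0.89 and -0.81.

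**Figure D4:**
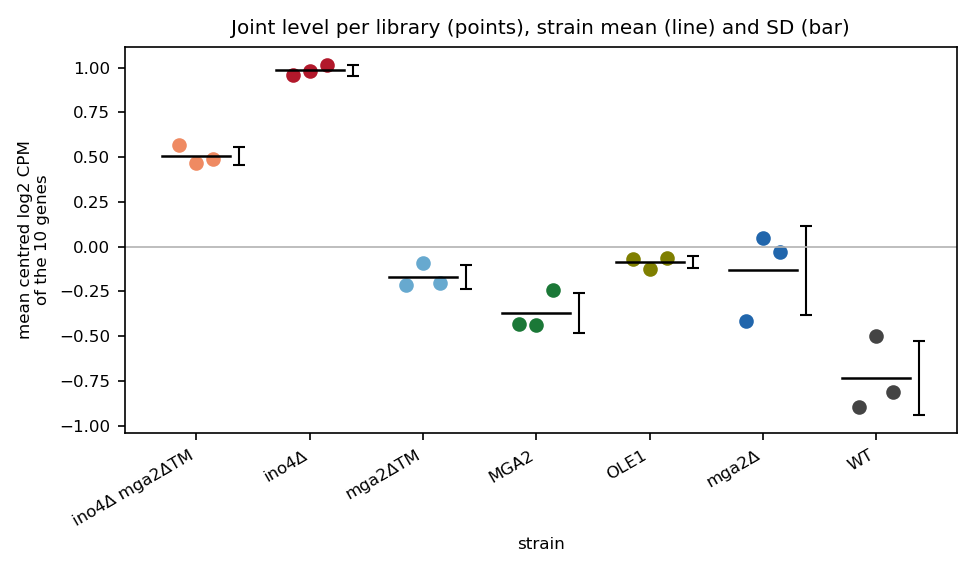
Joint level of the 10 genes per library (y axis, mean of centred log2 CPM; x axis, strain; points, libraries; lines, means; bars, SD over 3 libraries). The *ino4Δ* libraries lie near 0.98 and the *ino4Δ mga2ΔTM* libraries near 0.51, above all others; in *mga2Δ* replicate 1 lies at -0.42, under the other 2.

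Across the 21 libraries, which share strains and are not 21 independent samples, the 45 pairs among the 10 genes had Pearson correlations of log2 CPM of 0.25 to 0.94 with a median of 0.76. *PXA1* and *FOX2* were the most alike (0.94) and *ECI1* and *CAT2* the least (0.25). With the mean of the other 9, *FOX2* and *POT1* reached 0.95 and *ECI1* 0.55. The genes outside the set with the pattern most like the joint level, among 6000 candidates, were *PIR3* (0.97), *AGP3*, *IDP2*, *SGA1* and *ATG39* (each 0.97), and *AAD6*, *SIP18* and *PLN1* (each 0.96). *IDP2* encodes the cytosolic NADP-dependent isocitrate dehydrogenase, *PIR3* a cell wall protein, *SGA1* the glucoamylase of sporulation, *AGP3* an amino acid permease and *PLN1* a lipid droplet protein. *PIR3* had a mean of 181 CPM in *ino4Δ* and 5.37 CPM in wild-type. Over the 7 strain means, 4 of these 8 genes were again among the 8 most alike.

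Genes of the pathways around beta-oxidation were counted by the same rule, beside 19.2% of all genes called higher in *ino4Δ* and 17.9% in *ino4Δ mga2ΔTM*. Of 10 genes of the glyoxylate cycle and gluconeogenesis, 9 were called higher in *ino4Δ* against wild-type (median log2 fold change 1.97), and 9 higher in *ino4Δ mga2ΔTM*. *IDP2* rose by 1.70 ± 0.11 in *ino4Δ*, the phosphoenolpyruvate carboxykinase gene *PCK1* by 2.83 ± 0.19, the acetyl-CoA synthetase gene *ACS1* by 2.24 ± 0.15 and the succinate-fumarate carrier gene *SFC1* by 3.94 ± 0.42, the last from very few reads in wild-type (0.261 CPM). The peroxisomal citrate synthase gene *CIT2*, named after its value was seen, was the one not called in *ino4Δ* (-0.35 ± 0.12). In *ino4Δ mga2ΔTM*, *CIT2* was called higher, against wild-type and against *ino4Δ*. The one not called there against wild-type was *MDH2*, also named after its value was seen. Of 4 other genes of the carnitine shuttle, 3 were called higher in *ino4Δ* (median 1.08). The mitochondrial carrier gene *CRC1* rose by 1.87 ± 0.23 and the carnitine acetyltransferase genes *YAT1* and *YAT2* by 1.57 ± 0.27 and 0.59 ± 0.10, while the plasma membrane gene *AGP2* had -0.03 ± 0.15. Like *CAT2*, *YAT1* was called higher in the 4 plasmid strains, by 3.48 ± 0.26 in *ino4Δ mga2ΔTM*, 2.94 ± 0.26 in *mga2ΔTM*, 2.46 ± 0.26 in *OLE1* and 1.14 ± 0.28 in *MGA2*, all against wild-type.

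Other genes of the peroxisome were counted in the same way. Of 12 further genes of peroxisomal fatty acid metabolism, 3 were called higher and 2 lower in *ino4Δ* (median -0.10, beside 0.03 over all genes tested). Of all genes, 19.2% were called higher and 10.1% lower, shares that also stand beside the peroxins and regulators below. The medium-chain acyl-CoA synthetase gene *FAA2* rose by 1.01 ± 0.12, the peroxisomal NADP-dependent isocitrate dehydrogenase gene *IDP3* by 0.97 ± 0.15, and *PCD1*, named after its value was seen, by 0.74 ± 0.23. The ATP carrier gene *ANT1* fell by 0.64 ± 0.08 and the aspartate aminotransferase gene *AAT2* by 0.73 ± 0.06 on the log2 scale. Of 25 peroxins, the proteins that build peroxisomes and import their enzymes, 2 were called higher (median 0.19): *PEX18*, a co-receptor for the import of thiolase, by 2.98 ± 0.26, and *PEX27* by 0.73 ± 0.15. Of 8 regulators, 2 were called higher (median 0.26). These were *ADR1*, by 1.17 ± 0.08, and *CAT8*, an activator of gluconeogenic genes, by 1.67 ± 0.26. *PIP2* (0.36 ± 0.08) and *SNF1* (-0.28 ± 0.08) were not called. In *mga2Δ* *ADR1* (0.65 ± 0.08) and *CAT8* (1.21 ± 0.26) were called as well.

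**Figure D5:**
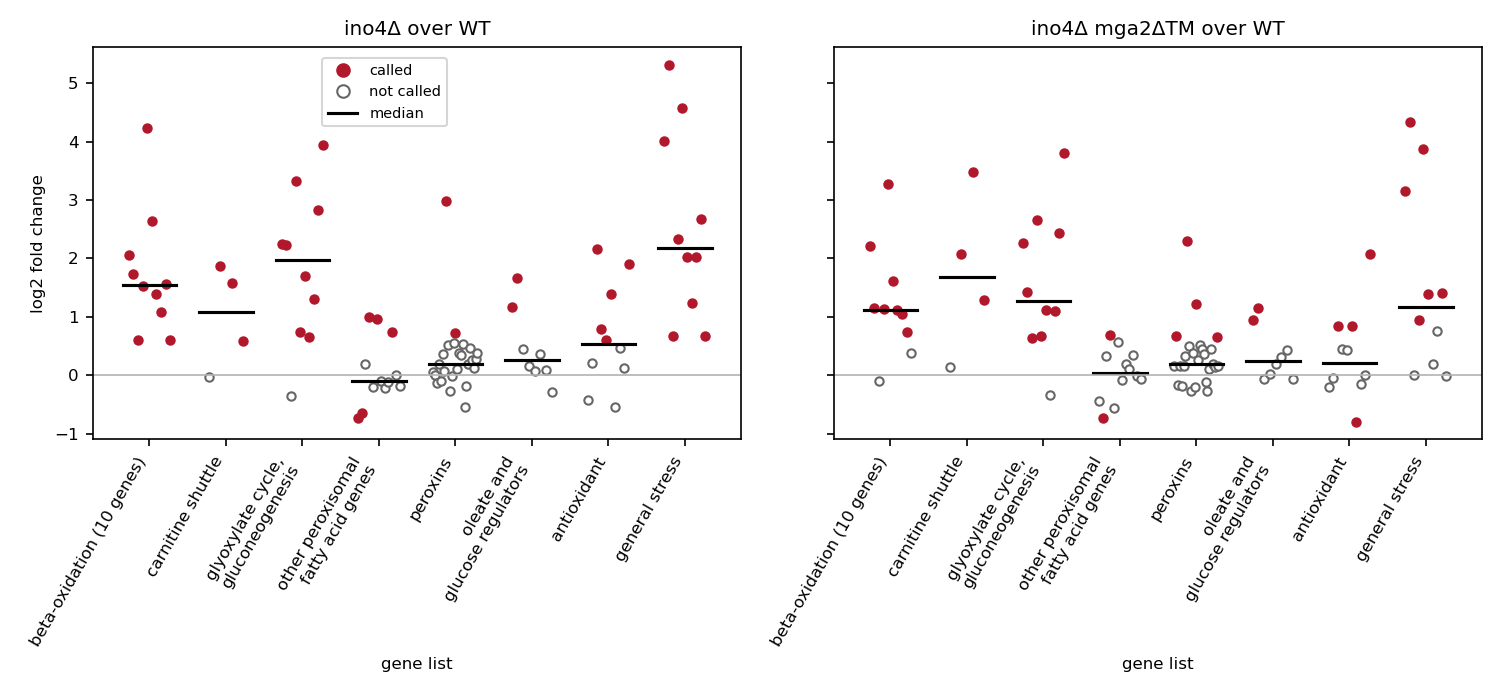
Log2 fold change of each gene of 8 lists in *ino4Δ* over wild-type (left) and *ino4Δ mga2ΔTM* over wild-type (right); filled points are called genes, open points are not, and lines are medians. In the left panel the median is 1.55 for the 10 beta-oxidation genes, 1.97 for the glyoxylate cycle and gluconeogenesis, 0.19 for the peroxins and -0.10 for other peroxisomal fatty acid genes.

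Genes outside the set with the same motifs were counted as a description. Of 102 tested genes outside the set with an oleate response element in the window, 27 (26.5%) were called higher in *ino4Δ* and 7 lower, beside the 19.2% of all genes. Of 1490 others with the Adr1 core, 290 (19.5%) were called higher, and of 1947 others with the stress element, 500 (25.7%). *CAT2*, with no oleate response element in the window, changed more than *ECI1* and *TES1*, whose elements are printed above. Of the 12 further genes of peroxisomal fatty acid metabolism, 5 held the oleate response element. Of these *FAA2* and *IDP3* were called higher in *ino4Δ*, and *DCI1* (0.19 ± 0.11), *MDH3* (-0.21 ± 0.08) and *PEX11* (0.01 ± 0.11) were not called. Of the 25 peroxins, 3 held it and were not called: *PEX5* (0.27 ± 0.10), *PEX6* (0.13 ± 0.07) and *PEX13* (0.19 ± 0.11). *DCI1*, *MDH3* and these 4 *PEX* genes were named after their values were seen. Of the 8 regulators, *PIP2* held it.

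Other gene groups also differed between the strains, not all in the order of the 10 genes, and their part in the results was not tested. Of all genes, 19.2% were called higher and 10.1% lower in *ino4Δ* than in wild-type, shares that stand beside each group below. In *ino4Δ* all 10 genes of a general stress list were called higher than in wild-type. Their summed level was 4634 to 5701 CPM in *ino4Δ* and 906 to 1635 CPM in wild-type. These stress genes were also all called higher in *mga2Δ*, beside 9.52% of all genes, at 3380 to 4823 CPM. The beta-oxidation genes summed to 93.2 to 127 CPM in *mga2Δ*, against 201 to 207 CPM in *ino4Δ* and 74.9 to 87.8 CPM in wild-type. The 8 genes encoded in mitochondrial DNA were all called higher in *ino4Δ* (4203 to 5608 CPM in *ino4Δ*, 2344 to 2981 CPM in wild-type). Their sum was 2386 to 2872 CPM in *ino4Δ mga2ΔTM* and 3637 to 4231 CPM in *mga2Δ*. BY4741 is of mating type a, and of its 5 markers none was at 0: *MFA2*, *STE2* and *STE6* were called lower and *MFA1* higher in *ino4Δ*, with a summed 812 to 853 CPM against 1244 to 1573 CPM in wild-type. In *mga2Δ* these 5 markers summed to 666 to 952 CPM. The 4 markers of mating type alpha summed to 39.2 to 44.97 CPM in *ino4Δ* and 20.8 to 21.8 CPM in wild-type, and all 4 were called higher. Few reads lay behind *MF(ALPHA)1* (means of 0.69 CPM in *ino4Δ* and 0.28 CPM in wild-type) and *MF(ALPHA)2* (0.84 and 0.09 CPM).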

How the data were processed

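RNA was depleted of rRNA and sequenced as single-end reads of 50 bases. The authors used STAR 2.5.1b with the Ensembl build R64-1-1 and deposited raw counts per gene, made with HTSeq 0.5.4p3. The strand setting of counting is not given in the sources used here. No other RefSeq gene overlaps any of the 10, but overlap with genes of the count table that are not in RefSeq was not checked. A deposited table of normalized values was not used. Of 7126 lines, 4 named no gene. Counts were filtered (filterByExpr, minimum count 10, minimum total 15), scaled by TMM and fitted over all 21 libraries with robust quasi-likelihood in edgeR 4.0.16 under R 4.3.3, with 1 mean per strain and 14 residual degrees of freedom. The authors used limma-voom, which was an alternative here (limma 3.58.1), as was DESeq2 1.42.0; the calling step was tested on simulated data. Joint levels used a prior count of 2. The genes and gene lists were chosen with earlier results of these data known. Named genes of each list were up to 4 with the smallest adjusted p in *ino4Δ* against wild-type, and the 8 tested genes most correlated with the joint level. Of 7122 genes, 6045 matched RefSeq. No 2 libraries of a strain were duplicates (correlations of log2 CPM 0.987 to 0.996). Figures were drawn with matplotlib 3.10.9.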

Additional observations from a re-analysis of the deposited data

Results flagged for a closer look

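The difference between the Mga2ΔTM plasmid strain and its own background was itself different in *ino4Δ* and *mga2Δ* for 3 of the 10 genes. The test was the interaction term of the edgeR quasi-likelihood fit (3 libraries per strain, adjusted over 6164 genes). This plasmid difference includes the change of medium and the plasmid itself, which cannot be told apart from Mga2ΔTM. The plasmid difference was more negative in *ino4Δ* by 1.07 ± 0.30 on the log2 scale for *POX1* (value -1.07, edgeR adjusted p = 0.0359), by 0.97 ± 0.17 for *SPS19* (value -0.97, edgeR adjusted p = 0.00261) and by 0.69 ± 0.19 for *CAT2* (value -0.69, edgeR adjusted p = 0.0324). *POX1* and *SPS19* were lower in *ino4Δ mga2ΔTM* than in *ino4Δ* and were not called between *mga2ΔTM* and *mga2Δ*. *CAT2* was higher in *mga2ΔTM* than in *mga2Δ* and was not called between *ino4Δ mga2ΔTM* and *ino4Δ*. Over all genes 1.9% were called in this direction. With only the compared strains fitted, *POX1* was not called (edgeR adjusted p = 0.0727).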

How the results depend on the processing

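All 10 genes kept the sign of their called changes under every alternative run. Beside the counts given in the report, the number of genes called higher in *mga2Δ* than in wild-type was 9 without a fold minimum and 3 with only the compared strains fitted, against 5, and in *MGA2* over wild-type 4 and 1, against 2. Genes lower in *MGA2* than in *mga2Δ* numbered 1 with only the compared strains, against 2, and those lower in *mga2ΔTM* than in *mga2Δ* 2 without a fold minimum, against 1. For *mga2ΔTM* over *MGA2* the count of 1 became 0 with limma-voom, 2 without a fold minimum and 0 with only the compared strains. For *mga2ΔTM* under *OLE1* the count of 1 became 0 with library totals and 2 without a fold minimum. With 1 library left out, the counts ranged from 2 to 7 (higher in *mga2Δ* than in wild-type), 1 to 2 (lower in *MGA2* than in *mga2Δ*), 0 to 2 (higher in *mga2ΔTM* than in *MGA2*), 0 to 1 (lower in *mga2ΔTM* than in *OLE1*) and 1 to 3 (lower in the interaction). The joint level of *ino4Δ mga2ΔTM* was 0.62 with library totals. That of *ino4Δ* was 1.10 with library totals, 0.83 as a median over the genes, and 0.94 to 1.05 with a library left out. That of *MGA2* was -0.23 as a median, and that of *OLE1* was -0.15, -0.16 and -0.13 to -0.035 under the same changes. The cause of these shifts was not tested.

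With the replicate number as a block, all counts stayed as reported (10 higher in *ino4Δ* than in wild-type) and no call changed. That count did not hold in every setting. *ECI1* and *TES1* were lost from it with RLE size factors and with DESeq2, and *TES1* in 17 of 21 fits with a library left out. Same-numbered libraries did not deviate together (mean correlation 0.02 over 63 pairs, -0.35 to 0.45), so the numbers were taken as names. Of 1401 values of single genes under other settings 1363 kept their call, as did 2861 of 2940 with a library left out. Both totals include values that were not called in the main fit. For any pair of strains, most of the libraries left out belonged to neither, so these totals do not measure how firm the calls were. The low counts of *POT1* and *POX1* in wild-type and *MGA2* (5 to 27) limit the precision of their fold changes.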

Other observations

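Some gene groups next to the pathway were counted but belong in no comparison above. Of 10 antioxidant genes that act beside catalase, 5 were called higher in *ino4Δ* than in wild-type, beside 19.2% of all genes. The median log2 fold change of these 10 was 0.54. The peroxiredoxin genes *TSA2* and *PRX1* rose by 1.90 ± 0.14 and 1.39 ± 0.11 and the glutaredoxin gene *GRX1* by 0.79 ± 0.09, while the superoxide dismutase gene *SOD1* had -0.53 ± 0.06. The 10 genes summed to 4519 to 5053 CPM in *ino4Δ* and 4610 to 5207 CPM in wild-type. *SPS19* takes its name from sporulation, and of 12 sporulation genes 8 were called higher in *ino4Δ* (median 1.17), with a summed 117 to 138 CPM in *ino4Δ* and 32.8 to 38.6 CPM in wild-type.

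Of the 10 genes, 7 have a neighbour that starts in the opposite direction from the same upstream region, and 6 of these neighbours were tested. In *ino4Δ* against wild-type, 3 of them had an edgeR adjusted p below 0.05 with a change under 1.5-fold: *CHC1* beside *POX1* (log2 fold change -0.40 ± 0.06), *NNT1* beside *ECI1* (-0.54 ± 0.12) and *SPS18* beside *SPS19* (0.58 ± 0.14). The other 3 did not pass either limit, among them *BNR1* beside *POT1* with -0.13 ± 0.10, where *POT1* had 4.23 ± 0.30. These neighbours were chosen by position after the values of the 10 genes were known.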
